A study of Zea mays with 24 samples.

Results

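Cold-grown primary roots of the maize variety Codisco were set against control-grown primary roots of the variety Fergus on 3 of the 24 arrays of the series. These linking arrays were taken by their titles, 1 for each of the 3 biological replicates, and each carried Codisco cold RNA in Cy5 and Fergus control RNA in Cy3. The series holds 4 varieties (Codisco, Fergus, Picker and PR39B29) hybridised in 3 loops of 8 arrays, in which 4 direct arrays pair cold and control RNA of 1 variety and 4 linking arrays pair the cold RNA of 1 variety with the control RNA of another. Codisco cold seedlings were kept for 16 h at 12 °C and 8 h at 6 °C, and Fergus control seedlings for 16 h at 18 °C followed by a cooler period at 12 °C, both in the dark. The labels give the cooler control period as 6 h and the age as 8 days post-germination, while the methods of the study give 8 h and day 1. Codisco and Fergus were the less chilling tolerant varieties of the study, and the study describes the control regime too as a mild chilling. How many roots went into an RNA sample is not given in the sources used here, and root pieces, not single cell types, were extracted, so that a change in the share of a cell type and a change of RNA per cell cannot be told apart.

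Maize is a plant of warm climates, and its roots slow their growth and water uptake in cold soil. Chilled plant tissue commonly accumulates proteins of the water deficit and abscisic acid response and changes its peroxidases, its defence proteins and its cell wall enzymes. Varieties also carry different alleles and differ in the basal level of many transcripts. A ratio of Codisco cold over Fergus control holds both the cold response and the variety difference. The direct arrays of Codisco, on which the same Codisco cold RNA was paired with Codisco control RNA, were used to take them apart: the linking ratio minus the Codisco cold response leaves Codisco over Fergus under control. The probes were 70-mer oligonucleotides whose sequences were not analysed here. The only sequences used here for single genes of the list are primers that the study designed for quantitative PCR and gives under probe IDs. They are shown for 3 probes that return below, of a peroxidase, a small heat shock protein and a hypothetical protein. No primer was matched to a probe or a transcript here.
MZ00026737 forward: agaaggccatggtcaagatg
MZ00026737 reverse: gcttgcaggtcatgaacaaa
MZ00029223 forward: cgaagatcaaggacgaggag
MZ00029223 reverse: acgactgctctgcaacagaa
MZ00022876 forward: ggaaggtgtgttctgcgttt
MZ00022876 reverse: tatgaagctgactggcgttg

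The deposited value of a spot is the M-value, the log2 ratio of Cy5 over Cy3, so that a value of 1 is a doubling in Codisco cold roots relative to Fergus control roots. The linking arrays held a value for 24114, 19742 and 18268 of 43393 maize probes in replicates 1, 2 and 3, and 15239 probes had a value on all 3. Their spread differed, with standard deviations of 1.56, 0.58 and 0.54 and scaled median absolute deviations of 0.90, 0.46 and 0.45, although the methods name a scaling between arrays. The number of arrays limits the precision. Replicate 2 stood apart. Across probes the Spearman correlation was 0.45 between replicates 1 and 3, 0.08 between replicates 1 and 2 and 0.10 between replicates 2 and 3, so that tests and sets were also made without replicate 2, and the values of single probes are given array by array. For the linking arrays the dye labels and the order of names in the titles give the same direction, Codisco cold over Fergus control. For the direct arrays they do not: the dye labels read them as cold over control, and the titles as control over cold. Against the Codisco direct array of the same replicate, as deposited, the linking array had a Spearman correlation of −0.40 in replicate 1, 0.36 in replicate 2 and −0.45 in replicate 3. Summed round a loop, ratios that run one way should cancel for every probe. The median absolute sum was 1.05, 1.63 and 0.96 in title order in replicates 1, 2 and 3, and 2.32, 2.28 and 3.25 by the dye labels. The title order is therefore the likely direction of the direct arrays, without being settled, and all cold responses below are cold over control in that order. Their signs turn under the dye labels, while those of the linking arrays do not.

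No single probe passed the adjusted threshold between Codisco cold and Fergus control roots on the 3 arrays. By limma's moderated test, 0 of 3256 probes tested (0%) passed the threshold of 0.05 after Benjamini and Hochberg adjustment, the smallest adjusted p was 0.232, and 356 probes had an unadjusted p under 0.05. The count was also 0 of 15239 without the variance filter. It was 77 of 3256 (2.36%; 51 higher and 26 lower in Codisco cold roots) when the arrays were first scaled to the same median absolute deviation, 89 of 3896 (2.28%; 46 higher and 43 lower) without replicate 2, 23 of 3518 without replicate 1, 20 of 3928 without replicate 3, and 38 of 3169 (1.2%) in a fit of all 24 arrays in title order. Without replicate 2 and with no variance filter, a setting chosen later, it was 0 of 17000 (smallest limma adjusted p = 0.387). The calls without replicate 2 given below thus depend on the filter and rest on 2 arrays. Replicate 2 was singled out by its disagreement in the same values that are tested. Such calls favour probes on which the other 2 arrays agree, and are no separate support for a probe. Below, a probe is therefore described by its value on each of the 3 arrays.

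The probe with the smallest p of the linking comparison was annotated as small nuclear ribonucleoprotein polypeptide F (MZ00014087), a core protein of the spliceosome, which removes introns from pre-mRNA. Its M-value was 5.84, 4.56 and 2.76 in replicates 1, 2 and 3, a mean of 4.39 ± 1.55 (SD, n = 3; limma adjusted p = 0.232). All 3 values were positive and replicate 2 lay between the other replicates. The cold response of this probe within Codisco was −0.56, −0.29 and 1.58. When it was taken off, Codisco over Fergus under control came to 6.40, 4.85 and 1.18. Codisco over Fergus in the cold, from the linking array and the Fergus direct array, came to 4.87, 4.20 and 0.84. The probe passed the test with the arrays scaled alike (adjusted p = 0.00178) and without replicate 2 (adjusted p = 0.0201).

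A putative 40S ribosomal protein (MZ00017067), a part of the small subunit of cytosolic ribosomes, ran the other way. Its M-value was −6.07, −2.80 and −1.82, a mean of −3.57 ± 2.23 (SD, n = 3; limma adjusted p = 0.252), lower in Codisco cold than in Fergus control roots on every array. In Codisco the cold response was only −0.31, −0.62 and −0.67, and the difference under control was −5.76, −2.18 and −1.16. The linking arrays of Fergus cold over Picker control share no RNA with the Codisco cold and Fergus control pairs. On them the probe had 3.81, 4.93 and 14.71. The value of replicate 3 lies beyond 10 on the log2 scale, on an array with 98 such values. Fergus RNA thus had the higher signal on both kinds of linking array in every replicate, although both ratios hold variety and temperature together and the Fergus cold response had a single value (−1.17, replicate 2). The probe passed the test with the arrays scaled alike (adjusted p = 0.00475) and without replicate 2 (adjusted p = 0.0340). It was also called without replicate 3, but not without replicate 1.

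Probes without a product in the files or in the tables of the study also had one sign on all 3 arrays. MZ00041367 had 3.77, 2.03 and 3.29 on the linking arrays, and its Codisco cold response was −0.57 and 0.41 in replicates 2 and 3, with no value in replicate 1. MZ00014220 had −7.47, −3.63 and −2.58, and its Codisco cold response was −0.54, 0.78 and 0.58. Like the ribosomal protein probe, it was high in Fergus cold over Picker control roots (2.43, 3.68 and 5.92). MZ00027533 had −2.63, −3.16 and −1.96, and its Codisco cold response was 0.28, 2.32 and 2.29, opposite in sign. On PR39B29 cold over Codisco control it had 4.03, 5.03 and 6.42. The limma adjusted p of these 3 probes on the linking arrays was 0.232. Without replicate 2 it was 0.0252 for MZ00041367, 0.0191 for MZ00014220 and 0.108 for MZ00027533.

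**Figure D1:**
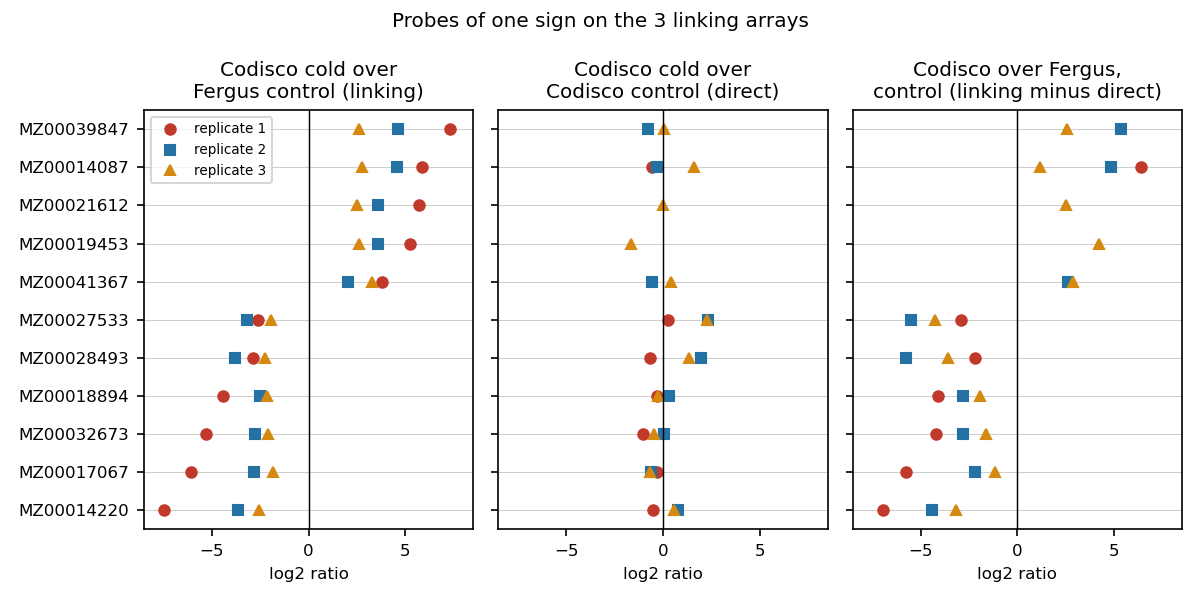
Log2 ratios of the 5 probes of smallest p in each direction on the linking arrays and of the 40S ribosomal protein probe (MZ00017067), with 1 symbol for each replicate. In the left panel (Codisco cold over Fergus control) all 3 replicates lie on one side of 0, as the choice of probes fixed for all but the 40S probe. The middle panel shows Codisco cold over Codisco control, with values between −1.63 and 2.32, and the right panel Codisco over Fergus under control, which is the left panel minus the middle one. Missing symbols are missing values.

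Probes with large ratios were then taken as a set. An M-value of 1 or more on all 3 linking arrays was found for 97 of the 15239 probes (0.637%), and one of −1 or less for 53 (0.348%). For the 97 higher probes the median cold response within Codisco was −0.08, 0.24 and 0.34 in replicates 1, 2 and 3, and for the 53 lower probes −0.23, −0.14 and −0.02. The median cold response within Fergus was 0.44, 0.69 and 1.01 for the 97 and −0.69, −0.50 and −0.08 for the 53, in the direction of the linking ratio. The Fergus direct arrays share the Fergus control RNA with the linking arrays, and the Codisco direct arrays the Codisco cold RNA. Choosing probes on the linking ratio thus favours that direction in both cold responses. Of the 150 probes, 111 had a Codisco cold response in every replicate, and its mean was under 1 in size for 81 of them (73.0%), against 78.7% of the 19083 probes with 3 Codisco values. It had one sign in all 3 replicates for 39 of the 111 (35.1%), against 39.1%. Arrays that share no RNA with the linking arrays were also read for the same probes. On PR39B29 cold over Codisco control the 97 probes had medians of −0.70, −0.84 and −0.61, and 65.1%, 75.4% and 59.0% of those with a value were below 0, against 50.2%, 49.2% and 49.5% of all probes. The 53 lower probes had medians of 0.65, 1.42 and 1.65 there. On Fergus cold over Picker control the medians were 0.01, 0.50 and 0.41 for the 97 probes and 0.62, 0.70 and 0.27 for the 53. The 97 probes higher in Codisco cold than in Fergus control roots were mostly higher in Codisco control than in PR39B29 cold roots too, in all 3 replicates. They had no median below 0 in Fergus cold relative to Picker control roots. Each of these ratios holds variety and temperature together. The picture rests on replicate 2 in the choice of probes. Without it, 373 and 304 of 17000 probes were at 1 or more and at −1 or less on both other arrays, and their median Codisco cold response was 0.61, 1.54 and 1.57 for the 373 and −0.32, −2.24 and −1.51 for the 304. Their medians on PR39B29 cold over Codisco control were 0.72, 0.72 and 1.47 for the 373, on the other side of 0 from those of the 97. These limits were chosen with the values in view, and no test was run on these sets.

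**Figure D2:**
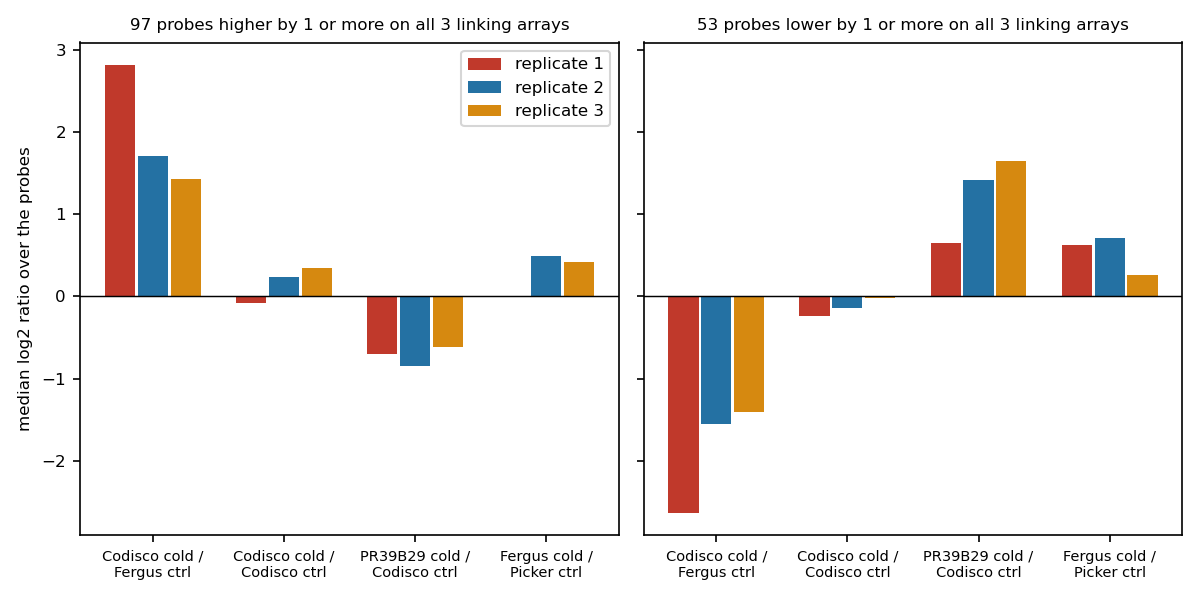
Median log2 ratio of the 97 probes at 1 or more (left) and the 53 probes at −1 or less (right) on all 3 linking arrays, shown on the linking arrays themselves, on the Codisco direct arrays (cold over control) and on 2 other kinds of linking array. Each bar is 1 array. The bars of Codisco cold over Codisco control stay between −0.23 and 0.34, and those of PR39B29 cold over Codisco control lie on the side opposite to the linking arrays.

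Probes that responded to cold in Picker were read as well. As a list drawn from arrays without Codisco or Fergus RNA, the probes with one sign on the 3 Picker direct arrays and a mean cold response of 2 or more in size were taken, 125 higher and 175 lower in Picker cold roots. On the linking arrays of Codisco cold over Fergus control the 125 had a median of 2.96, −0.03 and 1.01 in replicates 1, 2 and 3, and 95 of 106, 52 of 111 and 94 of 106 probes with a value were above 0. Their median cold response in Codisco was 1.06, 2.80 and 2.76, and that in Fergus 2.00, 2.79 and 2.60. The 175 had medians of −1.22, 0.17 and −0.58 on the linking arrays. By median, both sets ran the way of the Picker cold response on the linking arrays of replicates 1 and 3 and not on that of replicate 2. The direct arrays of replicate 2 ran that way in both varieties. The reason was not tested. A linking ratio holds variety and cold together, and the 175 had a median Codisco cold response of 0.03 in replicate 1. Spots without a probe also held values: of 1972 blank spots, 7.56%, 0.406% and 0.456% had a value on the linking arrays of replicates 1, 2 and 3, but 0.406%, 25.5% and 99.8% on the Codisco direct arrays, and the part of this in the differences was not tested.

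**Figure D3:**
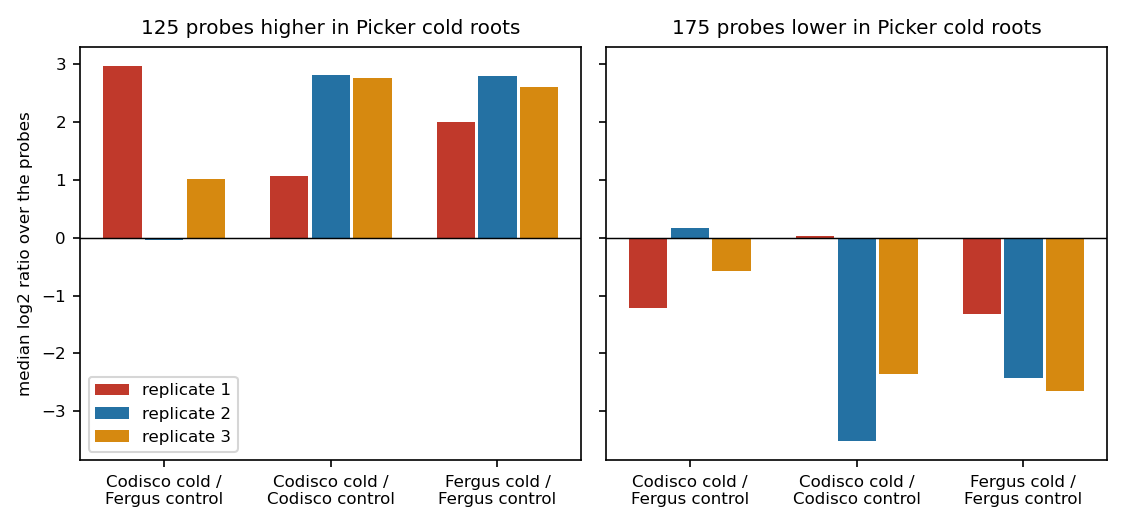
Median log2 ratio of 125 probes higher (left) and 175 probes lower (right) in Picker cold roots, on the linking arrays of Codisco cold over Fergus control and on the direct arrays of Codisco and Fergus. Each bar is 1 array. On the linking arrays the bar of replicate 2 is close to 0 (−0.03 and 0.17), while replicates 1 and 3 run the way of the direct arrays, of which only Codisco replicate 1 (0.03, right) is near 0.

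The 52 listed probes had products named in the tables of the study and were chosen there on these samples. Of the 38 with a value on all 3 linking arrays, 26 were above 0 in replicate 1, 14 in replicate 2 and 25 in replicate 3, and none of the 38 passed the test. Their median was 2.64, −0.23 and 0.73 in the 3 replicates, against 0.46, 0.04 and 0.10 for all probes tested. One sign on all 3 arrays was found for 8 of the 38 above 0 and 7 below 0, against 17.8% above and 16.6% below among all 15239 probes with 3 values. Replicate 1 had the value farthest from 0 for 36 of the 38. Replicates 1 and 3 shared their sign in 33 of them, and replicates 1 and 2 in 16. In 18 of the 38, replicate 2 lay across 0 from both others. Without replicate 2, 7 of 43 listed probes tested were called, against 2.28% of all probes, and the median mean of the 38 was 1.68 instead of 0.91. The study chose the listed probes for their cold change on arrays of this series, and replicate 2 was left out for its disagreement. These differences from all probes therefore say nothing of the list.

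**Figure D4:**
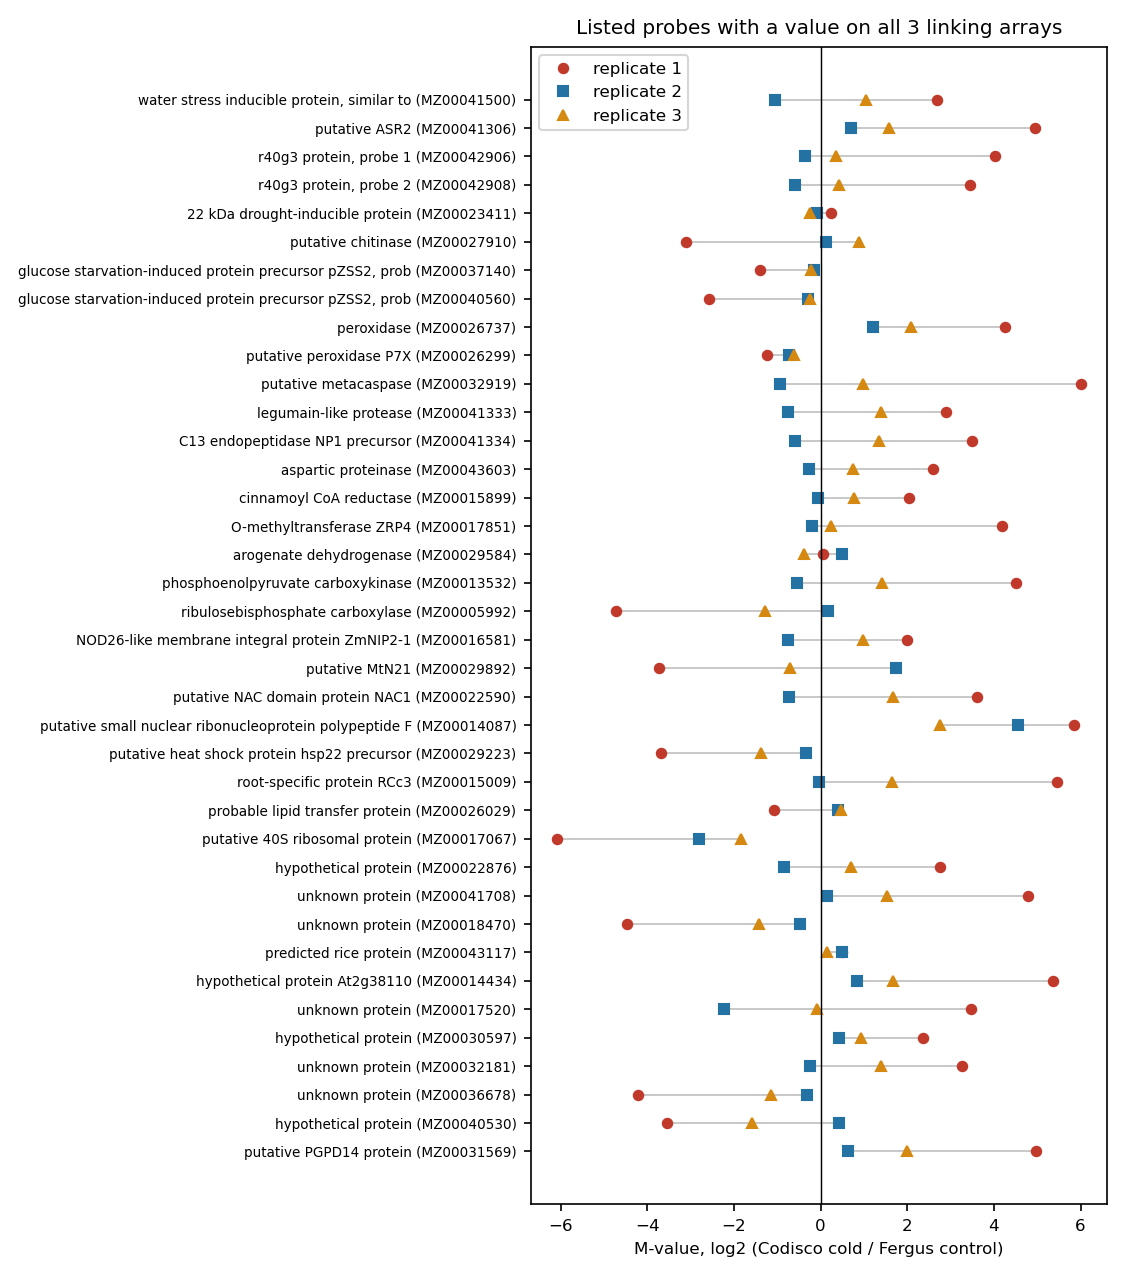
M-values (log2, Codisco cold over Fergus control) of the 38 listed probes with a value on all 3 linking arrays, with 1 symbol for each replicate and a grey line from the lowest to the highest. Replicate 1 lies farthest from 0 for most probes, and replicate 3 lies on the same side for most. Replicate 2 lies close to or across 0, apart from the ribonucleoprotein (4.56), the 40S ribosomal protein (−2.80) and the peroxidase MZ00026737 (1.21).

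Among the water deficit and abscisic acid proteins, putative ASR2 (MZ00041306), of a family of small proteins induced by abscisic acid, stress and ripening, was the only one of 5 probes above 0 on every linking array, with 4.96, 0.71 and 1.59 (mean 2.42 ± 2.24, SD, n = 3; limma adjusted p = 0.396). Its cold response was 2.81, 4.97 and 3.03 within Codisco. The difference under control was 2.15, −4.26 and −1.44, which has no common sign. Without replicate 2 it passed the test (mean 3.27, adjusted p = 0.0493), but not without replicate 1 or without replicate 3. The 2 probes of the r40g3 protein gave like values, 4.03, −0.36 and 0.36 for MZ00042906 and 3.45, −0.59 and 0.43 for MZ00042908. A water stress inducible protein (MZ00041500) had 2.69, −1.05 and 1.05, with a Codisco cold response of 1.20, 5.64 and 4.93. The 22 kDa drought-inducible protein (MZ00023411) stayed between −0.24 and 0.23 on all 3 arrays. The median mean of the 5 probes was 1.10, against 0.19 for all probes tested. The study lists all 5 as raised by cold in PR39B29 on arrays of this series, so that this difference says nothing of the class.

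Peroxidases use hydrogen peroxide and take part in cell wall stiffening. The peroxidase MZ00026737, whose primers are shown above, had 4.25, 1.21 and 2.09 (mean 2.52 ± 1.57, SD, n = 3; limma adjusted p = 0.321), with all 3 values at or above 1. Its Codisco cold response was 3.71, −2.91 and −0.97, with no common sign. Codisco over Fergus under control came to 0.54, 4.12 and 3.06, positive in every replicate. It passed the test with the arrays scaled alike (adjusted p = 0.0257) and without replicate 2 (adjusted p = 0.0440), but not without replicate 1 or without replicate 3. The putative peroxidase P7X (MZ00026299) had −1.23, −0.72 and −0.61, and another putative peroxidase (MZ00004711) had −4.31 and −0.17 in replicates 1 and 3 and no value in replicate 2. All 4 protease probes were above 0 in replicates 1 and 3 and below 0 in replicate 2. The widest was the metacaspase probe (MZ00032919), for a relative of caspases that acts in plant cell death, with 6.01, −0.95 and 0.98. The legumain-like protease (MZ00041333), a vacuolar cysteine protease, had 2.89, −0.75 and 1.40, and the C13 endopeptidase NP1 precursor (MZ00041334), of the same family, 3.51, −0.59 and 1.34. The aspartic proteinase (MZ00043603) had 2.60, −0.28 and 0.75. For 3 of these 4 protease probes the Codisco direct arrays held a value only in replicate 1, so that their variety difference could not be compared over replicates.

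Of the defence probes, a putative chitinase (MZ00027910), of an enzyme class that breaks down chitin of fungal cell walls, had −3.11, 0.12 and 0.90. The 2 probes of the glucose starvation-induced protein precursor were below 0 on all 3 arrays, with −1.41, −0.15 and −0.23 for MZ00037140 and −2.57, −0.29 and −0.23 for MZ00040560. Pathogenesis related protein-1 (MZ00004486), a secreted protein of the defence response, had a value only in replicate 1, −6.90. The small heat shock protein hsp22 precursor (MZ00029223), a chaperone that keeps unfolded proteins from clumping, was below 0 throughout, with −3.68, −0.34 and −1.37 (mean −1.80 ± 1.71, SD, n = 3; limma adjusted p = 0.441). Within Codisco its cold response was −1.66, −2.09 and −2.31. Taking it off left −2.02, 1.76 and 0.94 between the varieties under control, with no common sign.

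Among metabolic enzymes, transporters and regulators, replicate 2 often stood across 0. Phosphoenolpyruvate carboxykinase (MZ00013532), which starts gluconeogenesis from organic acids, had 4.51, −0.55 and 1.41, and a Codisco cold response of 2.65, 5.61 and 3.09. Cinnamoyl CoA reductase (MZ00015899), on the way to lignin, had 2.05, −0.06 and 0.77. Arogenate dehydrogenase (MZ00029584), which makes tyrosine, lay between −0.39 and 0.50. The aquaporin family member ZmNIP2-1 (MZ00016581) had 2.00, −0.74 and 0.97, and putative MtN21 (MZ00029892) ran the opposite way with −3.74, 1.74 and −0.70. The putative NAC domain protein NAC1 (MZ00022590), of a plant family of transcription factors, had 3.60, −0.72 and 1.68. In Codisco its cold response was 1.38, 3.40 and 3.37. In each of the probes of this paragraph except arogenate dehydrogenase, replicate 2 lay on the side of 0 opposite to replicates 1 and 3.

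The tissue label was set against its markers as far as ratios allow, since an M-value gives no level. The root-specific protein RCc3 (MZ00015009) had 5.46, −0.03 and 1.65, with a Codisco cold response of 1.34, 6.66 and 4.48. It passed the test without replicate 2 (mean 3.55, adjusted p = 0.0427), but not without replicate 1 or without replicate 3. The O-methyltransferase ZRP4 (MZ00017851), known from maize roots, had 4.18, −0.20 and 0.25, and root cap protein 2 (MZ00032161) had a value only in replicate 1, −9.52. Of 38 probes named for plastid photosynthesis genes, 25 had no value on any linking array and 5 had one on all 3, between −1.72 and 1.37. The ribulosebisphosphate carboxylase product (MZ00005992) had −4.72, 0.17 and −1.28. Of 29 probes named for plastid ribosomal proteins and the plastid RNA polymerase, 8 had a value on all 3 arrays, with medians of −0.69, 0.17 and 0.09, and none of the 8 had one sign throughout. The share of photosynthesis probes without any linking value was 65.8%, against 38.3% of all probes, and a missing M-value gives no level.

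Of the 14 listed probes grouped as unknown, among which the putative PGPD14 protein was counted, 11 had a value on all 3 arrays. Of these 11, 5 were above 0 and 2 below 0 on every array. A hypothetical protein like At2g38110 (MZ00014434) had 5.37, 0.83 and 1.68, and passed the test with the arrays scaled alike (adjusted p = 0.0486) and without replicate 2 (adjusted p = 0.0427). The putative PGPD14 protein (MZ00031569) had 4.98, 0.63 and 2.00 and passed it without replicate 2 (adjusted p = 0.0376). Neither MZ00014434 nor MZ00031569 was called without replicate 1 or without replicate 3. The unknown protein MZ00018470 had −4.48, −0.47 and −1.41, and its Codisco cold response was −1.53, −0.12 and −0.84. The hypothetical protein MZ00022876, whose primers are shown above, had 2.75, −0.85 and 0.70.

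The variety difference itself was tested over the 3 replicates at both temperatures. Under control, Codisco minus Fergus was called for 0 of 2855 probes (0%; limma, smallest adjusted p = 0.686, 100 probes at an unadjusted p under 0.05), with 0 of 3341, 5 of 3403 and 1 of 3215 without replicate 1, 2 or 3. In the cold, 4 of 2809 probes (0.142%) were called, all higher in Codisco, and 275 had an unadjusted p under 0.05. MZ00041367 had the smallest adjusted p (0.00219), with 4.70, 3.81 and 6.38. Its Fergus cold response, which is taken off in this difference and adds to its size, was −0.92, −1.78 and −3.09. MZ00031461 had 5.59, 3.96 and 2.17 (adjusted p = 0.0306), and on PR39B29 cold over Codisco control it had −4.75, −4.50 and −6.50, low against Codisco in each replicate. On Fergus cold over Picker control it had −2.49, −5.76 and −1.90. MZ00024028 had 6.25, 5.70 and 0.93 (adjusted p = 0.0306), and −3.17, −5.62 and −8.73 on PR39B29 cold over Codisco control. MZ00014787 had 17.43, 3.01 and 2.14 (adjusted p = 0.0273), and its value in replicate 1 rests on a linking M-value of 16.78. Without replicate 2 the limma adjusted p was 0.000402 for MZ00041367, but 0.100 for MZ00031461 and 0.179 for MZ00024028. For MZ00014787 it was 3.14e-14, from 2 values as far apart as 17.43 and 2.14. The moderated test shares variance between probes, so that this p does not measure the spread of those 2 values. Without replicate 3 the adjusted p of MZ00041367 was 0.112. The 4 calls ended without the variance filter (0 of 13738) and in a fit without the replicate block, which gave each kind of array its own mean (0 of 2809). Without replicate 1, 2 or 3 the count was 287 of 3170, 14 of 3313 or 13 of 3402. With the direct arrays read by the dye labels the counts were 449 of 2855 under control and 256 of 2809 in the cold, and 1 of the 4 probes was among the 256.

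The cold response of Codisco, which was taken off the linking ratio, was itself uncertain. No probe of 4610 was called on the 3 Codisco direct arrays (0%; limma, smallest adjusted p = 0.349, 573 probes at an unadjusted p under 0.05), and without replicate 2 the count was 51 of 4842. The Spearman correlation across probes was −0.02 between replicates 1 and 2, 0.03 between replicates 1 and 3 and 0.47 between replicates 2 and 3, so that replicate 1 stood apart there. The differences between the varieties under control carry this spread. For the listed cold-responsive probes they were often of opposite sign in replicate 1 and in replicates 2 and 3, as for RCc3 (4.11, −6.70 and −2.83) and phosphoenolpyruvate carboxykinase (1.86, −6.16 and −1.68).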

How the data were processed

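Primary root RNA was hybridised in pairs to spotted 70-mer arrays. The authors used minimum background correction, print-tip loess within arrays and scaling between arrays, left out bad spots and deposited log2 ratios (M-values) for each spot. CARMAweb, which runs limma, was used (version not given in the sources used here), and M is Cy5 over Cy3 per the file headers. A further 96 columns of single slides matched no sample and were not used.

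Spots were named by block, row and column, and the 43536 maize spots were averaged to 43393 probes. Of 42364 probes with 2 or more values, the 40% with the largest variance over the 24 arrays as deposited (16946) were kept. Those with values on all arrays of a comparison were tested. The variance included the arrays tested, so that a probe could pass the filter through the values then tested against 0. Means over 3 replicates were tested against 0 with limma 3.58.1 in R 4.3.3, with Benjamini and Hochberg adjustment. Linking and direct arrays were joined by replicate number, which the labels give as the biological replicate. Correlations and loop sums used values limited to ±10. In simulated data of 3256 probes with normal noise, the test of the linking comparison recovered 0%, 28%, 100% and 100% of 50 probes each changed by 1, 2, 4 and 8 on the log2 scale, with 5 false calls. Real arrays held outlying values, so that these shares do not give its power. Members and lists were chosen with earlier results of these data known. Probes named are those of the lists, and the 5 probes of one sign with the smallest p in each direction for each comparison, of which at most a few without a product are printed. Alternatives were other filters, centring, scaling, removal of values beyond 10, leaving out each replicate, a joint adjustment over the 4 comparisons, 1 missing replicate, and fits of 24 or 9 arrays.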

Additional observations from a re-analysis of the deposited data

Results flagged for a closer look

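Blank spots, which carry no probe and enter no comparison above, held M-values on the arrays used here. A share above 0.152%, the limit that a count of 0 among 1972 spots allows for counting error, was found on each of the 6 arrays. On the linking arrays of Codisco cold over Fergus control it was 7.56% in replicate 1, 0.406% in replicate 2 and 0.456% in replicate 3. On the direct arrays of Codisco it was 0.406% in replicate 1, 25.5% in replicate 2 and 99.8% in replicate 3. The array with 99.8% of its blank spots filled was also the one with a value for 43108 of 43393 probes, against 20037 and 36768 on the other 2 Codisco direct arrays. No test of a single array's place was made, since each kind of array has 3 samples.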

How the results depend on the processing

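For Codisco cold over Fergus control the count of 0 called probes became 77 with the arrays scaled to one median absolute deviation, 38 in the fit of all 24 arrays and 34 with a dye term added. Leaving out 1 replicate gave between 20 and 89 (23 without replicate 1, 89 without replicate 2, 20 without replicate 3). Settings chosen after seeing the data, all without replicate 2, gave 588 with the arrays scaled alike, 181 with values beyond 10 left out and 0 with no variance filter. For Codisco minus Fergus under control, leaving out 1 replicate gave between 0 and 5, and the dye labels gave 449. In the cold the 4 calls became 0 with no variance filter, 0 with the filter over ratios turned to cold over control, 0 in the fit of 9 arrays, 0 in that fit with the replicate block, 0 with no replicate block, 1 with the joint adjustment, 2 in the fit of 24 arrays and 2 with a dye term. They became 11 with the arrays scaled alike, 21 with values beyond 10 left out, 35 with 1 missing replicate allowed, 256 by the dye labels, between 13 and 287 leaving out 1 replicate, and 0 with no filter and values beyond 10 left out (chosen later). For Codisco cold over Codisco control, leaving out 1 replicate gave between 0 and 51. The replicate block changed no other count (0 called for the linking comparison and under control), and the pairing comes from the labels. The cause of these changes was not tested. Of the probes named by rule, MZ00042699, MZ00044078, MZ00052500 and MZ00056623 turned their sign in the cold difference by the dye labels (−3.77, 3.78, 3.18 and 2.94). Of 37 listed probes with 3 values, leaving out the ribonucleoprotein, none had a mean that moved by its SD or more under centring, scaling or leaving out 1 replicate. This limit cannot show stability. Leaving out 1 of 3 values can never move a mean by its SD, and centring moves it only by array medians near 0. The median mean of all 38 listed probes with 3 values went from 0.91 to 1.68 without replicate 2. M-values carry no signal over background, so that its limit on each probe is unknown.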
